A study of Homo sapiens with 6 samples.

Results

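The 10 genes described here make NAD, modify or use it, or take ADP-ribose off again. They were chosen by gene symbol: NAMPT, NMNAT1, NADSYN1, NADK, NNMT, QPRT, PARG, MACROD1, SIRT1 and NUDT5. Each symbol had 1 entry among the 53826 entries of every table, and all 10 were above 2 TPM (a relative transcript level, scaled by gene length and library total) in all 6 libraries, so each was among the 13181 genes tested. The libraries were made from A549 cells, an established line from a human lung adenocarcinoma, after retroviral transduction. A549-GFP cells (n = 3) received a vector for green fluorescent protein, and A549-TIPARP cells (n = 3) received the same vector type with the coding region of TIPARP, amplified from complementary DNA of A549-OKS cells. Both were untreated stable lines, and whether a line came from 1 clone or from a pool was not given in the sources used here. Their comparison asked which transcripts differ when TIPARP is overexpressed.

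Cells make NAD by salvage of nicotinamide, from nicotinic acid and from tryptophan, and the last of these routes passes through quinolinate. Sirtuins, NAD glycohydrolases and ADP-ribosyltransferases split NAD and release nicotinamide, which NAMPT returns to the pool or NNMT methylates for disposal. TIPARP (PARP7) is a transferase that uses NAD to put single ADP-ribose units on proteins. Macrodomain and ADP-ribosyl hydrolases take such units off, and PARG cuts chains of them.

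TIPARP itself was at 6.79, 11.4 and 3.68 TPM in A549-GFP cells (replicates 1 to 3) and at 131, 90.5 and 123 TPM in A549-TIPARP cells. The lines did not overlap, and TIPARP rose by 3.90 on the log2(TPM + 1) scale (SE 0.34, limma with Benjamini-Hochberg adjustment, adjusted p = 0.0125). With a single library left out, its limma adjusted p ran from 0.0331 (A549-GFP replicate 2 left out) to 0.192 (A549-TIPARP replicate 3 left out), and it was above 0.05 without any of the other 4 libraries too, with differences of 3.54 to 4.24. The adjusted p was also above 0.05 with no filter on low genes (0.0965) and with the experiment number of the titles as a block (0.513), with a difference of 3.90 in both. Reads of the transgene and of the cells' own gene cannot be told apart in a gene total. All 10 epithelial and A549 markers checked, among them KRT8, KRT18, EPCAM and NQO1, were above the floor of 1 TPM in every library. All 7 endothelial markers were at the floor in every library, as were 6 of 7 mesenchymal stem cell markers and 3 of 5 leukocyte markers. Of the other leukocyte markers, CD68 was above it in every library and CD14 in all but A549-GFP replicate 1. In bulk RNA, fewer cells with a transcript and less of it per cell cannot be told apart.

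QPRT differed most among the 10 genes, with a mean 3.01-fold higher in A549-TIPARP cells than in A549-GFP cells. No other gene of the 10 passed 2-fold. NADSYN1 was the other gene for which every A549-TIPARP library lay above every A549-GFP library, and NUDT5 was the only one with all of them below. None of the 10 passed limma with Benjamini-Hochberg adjustment over the 13181 genes, and 1 (QPRT) had an unadjusted p under 0.05. Over all genes tested, 2 passed after adjustment (0.0152%) and 508 had an unadjusted p under 0.05 (3.85%, with 2.97% higher and 0.880% lower). The mean was more than 2-fold higher in A549-TIPARP cells for 1.53% of the genes tested and more than 2-fold lower for 0.432%. The lines did not overlap for 3 of the 10 genes, against 8.91% of all genes tested (5.36% higher and 3.54% lower). The median log2 difference of the mean deposited values was -0.21 for the 10 genes, 3 of them with a higher and 7 with a lower mean, and -0.07 for all genes tested, 59.9% of which had a lower mean.

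**Figure D1:**
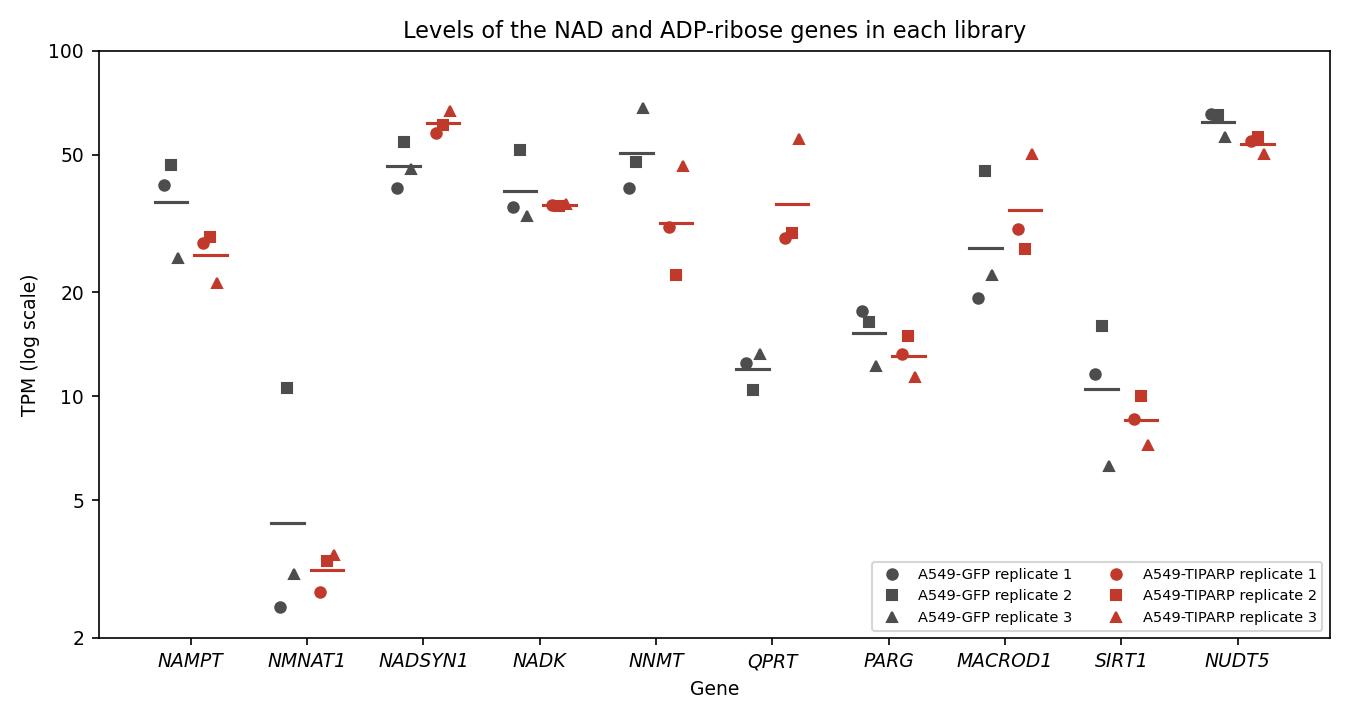
TPM (log scale) of the 10 genes in each of the 6 libraries, grey for A549-GFP and red for A549-TIPARP, with a different symbol for each replicate number and a bar at the geometric mean of the line (n = 3). QPRT lies between 10.4 and 13.3 TPM in the grey and between 28.8 and 55.5 TPM in the red libraries, while most other genes overlap between the lines.

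The upstream sequences of the 3 genes whose lines did not overlap are shown to compare their composition and the response elements in them. They are the bases before the start site in the RefSeq promoter table (GRCh38.p14), 5′ to 3′ on the gene's strand, and stop before any annotated exon. They lie at chr16:29678758-29679007 (plus strand) for QPRT, at chr11:71452953-71453108 (plus strand) for NADSYN1 and at chr10:12195892-12196141 (minus strand) for NUDT5. The QPRT window lies inside the longer GENCODE model of the gene, downstream of its outermost start. Capitals mark the response element cores described next.
QPRT: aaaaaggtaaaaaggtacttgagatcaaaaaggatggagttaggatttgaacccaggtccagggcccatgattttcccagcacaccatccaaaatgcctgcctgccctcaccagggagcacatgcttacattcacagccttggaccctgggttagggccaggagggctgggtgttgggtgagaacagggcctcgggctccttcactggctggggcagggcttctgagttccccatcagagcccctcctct
NADSYN1: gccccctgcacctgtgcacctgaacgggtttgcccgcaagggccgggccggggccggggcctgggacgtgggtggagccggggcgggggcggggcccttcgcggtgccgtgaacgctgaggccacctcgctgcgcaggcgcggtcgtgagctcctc
NUDT5: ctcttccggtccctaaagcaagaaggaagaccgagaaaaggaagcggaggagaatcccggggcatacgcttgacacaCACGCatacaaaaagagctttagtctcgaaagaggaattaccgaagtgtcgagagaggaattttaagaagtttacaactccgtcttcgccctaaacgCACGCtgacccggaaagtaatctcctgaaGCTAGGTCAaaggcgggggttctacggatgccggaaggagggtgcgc

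The sequence before QPRT held 1 CpG in 250 bases and that of NUDT5 held 18. The table had a promoter for 9 of the 10 genes, and NNMT was the gene without. In the windows of 250 bases, QPRT had the fewest CpGs of the 9, NADK had 6, and the other 7 had 18 (NUDT5) to 34 (NAMPT), beside a median of 11 over 35116 promoters. The windows were searched on both strands for GCGTG, the core bound by the aryl hydrocarbon receptor, of which TIPARP is a known target gene. GCGTG was in 7 of the 9 windows, and in 32.2% of all promoters, which were not limited to genes tested. GCGTG holds a CpG itself, and most of the 9 windows had more CpGs than the median promoter. The windows of NAMPT, NADK and PARG, like that of QPRT, lay inside the longer GENCODE model of their gene. NADK and QPRT had several RefSeq starts, and the start farthest upstream was used. The core of the antioxidant response element, TGACNNNGC, was in 3 windows (NAMPT, NADSYN1 and NUDT5) and in 10.9% of all promoters. The E-box CACGTG was in 2 windows (MACROD1 and SIRT1) and in 6.34% of all promoters. No match of one motif overlapped a match of another in these windows. QPRT held none of the 3 motifs, and the TGACNNNGC match of NADSYN1 lay in the part of its window not printed. NUDT5 held GCGTG at 173 and 76 bases and TGACNNNGC at 47 bases before the start site, all on the other strand. A match describes letters in a window and not a binding site.

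QPRT (Entrez Gene 23475, chr16:29663279-29698699, plus strand, 4 exons, GENCODE 44 on hg38) encodes quinolinate phosphoribosyltransferase, which turns quinolinate from tryptophan into nicotinic acid mononucleotide. Its level was 12.5, 10.4 and 13.3 TPM in A549-GFP cells against 28.8, 29.6 and 55.5 TPM in A549-TIPARP cells. The lowest A549-TIPARP library was above the highest A549-GFP library by 1.1 on the log2 scale, and A549-TIPARP replicate 3 stood above the other two of its line. The mean log2 TPM was 3.59 ± 0.18 (SD, n = 3) in A549-GFP cells against 5.18 ± 0.54 (SD, n = 3) in A549-TIPARP cells. On the log2(TPM + 1) scale the difference was 1.51 (SE 0.28, 95% interval 0.88 to 2.15, limma with Benjamini-Hochberg adjustment, adjusted p = 0.311). With genes ordered from the largest increase in mean deposited log2 TPM, QPRT (difference 1.59) was at rank 41 of the 13181. Without A549-TIPARP replicate 3 the deposited difference was 1.28 and the log2(TPM + 1) difference was 1.21. Of the 29 tested genes within 500 kb of QPRT, none passed 2-fold, and their log2 differences ran from -0.54 to 0.80 with a median of 0.01.

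The other genes of the tryptophan route were largely at the floor. KMO, HAAO, ACMSD and IDO2 were listed at the floor in all 6 libraries, and TDO2 reached 1.02 TPM in 1 library. KMO and HAAO encode the steps that make 3-hydroxykynurenine and lead from 3-hydroxyanthranilate towards quinolinate, the substrate of QPRT. IDO1, an enzyme of the first step, was between 1.62 and 4.59 TPM, and AFMID, the formamidase of the next, was between 18.4 and 20.7 TPM. KYNU, the kynureninase, was at 328, 322 and 324 TPM in A549-GFP cells and at 219, 252 and 287 TPM in A549-TIPARP cells. All 3 A549-TIPARP libraries were below the A549-GFP libraries, by 0.37 in the mean (95% interval -0.73 to -0.01, limma with Benjamini-Hochberg adjustment, adjusted p = 0.994). KYNU and QPRT were thus listed with mean differences of opposite direction, and no transcript of KMO or HAAO was listed above 1 TPM.

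**Figure D2:**
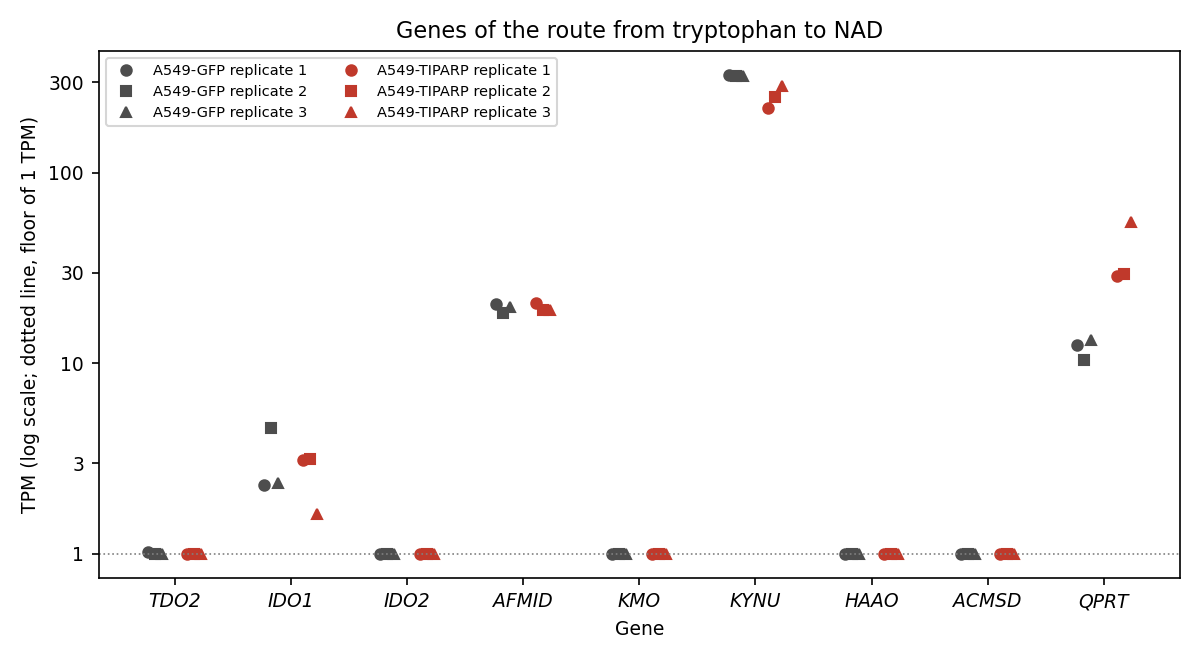
TPM (log scale) of 9 genes of the route from tryptophan to NAD in each of the 6 libraries, grey for A549-GFP and red for A549-TIPARP, with the floor of 1 TPM as a dotted line. KMO, HAAO, ACMSD and IDO2 sit at the floor, KYNU is the highest at 219 to 328 TPM, and QPRT is the gene with the wide gap between the lines.

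NADSYN1 (Entrez Gene 55191, chr11:71453109-71524107, plus strand, 21 exons) encodes NAD synthetase, the last step for NAD made from nicotinic acid and from quinolinate. Its level was 40.1, 54.6 and 45.5 TPM in A549-GFP cells against 57.9, 61.1 and 66.8 TPM in A549-TIPARP cells. The lines did not overlap, but A549-GFP replicate 2 was within 0.084 (log2) of the lowest A549-TIPARP library. The mean was 1.33-fold higher in A549-TIPARP cells (difference on the log2(TPM + 1) scale 0.41, SE 0.18, 95% interval -0.01 to 0.83, limma with Benjamini-Hochberg adjustment, adjusted p = 0.994). NAPRT, which starts the nicotinic acid route, was at 10.7, 5.05 and 9.65 TPM in A549-GFP cells and at 11.7, 13.4 and 13.5 TPM in A549-TIPARP cells. Its lines did not overlap either, with a 1.59-fold higher mean in A549-TIPARP cells (95% interval of the difference -0.04 to 1.25, limma with Benjamini-Hochberg adjustment, adjusted p = 0.994).

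NAMPT and NMNAT1, of the salvage route, had lower means in A549-TIPARP cells with overlapping libraries, and the direction of NMNAT1 turned without A549-GFP replicate 2. NAMPT (Entrez Gene 10135, chr7:106248298-106285966, minus strand, 11 exons) encodes the rate-limiting enzyme of salvage, which makes nicotinamide mononucleotide. Its level was 40.9, 46.8 and 25.2 TPM in A549-GFP cells against 27.7, 28.9 and 21.3 TPM in A549-TIPARP cells. A549-GFP replicate 3 lay within the range of the A549-TIPARP libraries, and the other A549-GFP libraries lay above it. The mean was 1.41-fold lower in A549-TIPARP cells (difference -0.49, SE 0.26, 95% interval -1.08 to 0.11, limma with Benjamini-Hochberg adjustment, adjusted p = 0.994). The difference was -0.74 without A549-GFP replicate 3, and -0.31 with A549-GFP replicate 2 left out. NMNAT1 (Entrez Gene 64802, chr1:9943428-9985501, plus strand, 5 exons), which encodes the nuclear enzyme that completes NAD from the mononucleotide, was the lowest of the 10 genes. It was at 2.45, 10.6 and 3.06 TPM in A549-GFP cells and at 2.71, 3.33 and 3.47 TPM in A549-TIPARP cells. A549-GFP replicate 2 was 3.85-fold above the other A549-GFP libraries, and the remaining 5 libraries lay between 2.45 and 3.47 TPM. The difference of -0.39 (SE 0.43, 95% interval -1.36 to 0.58, limma with Benjamini-Hochberg adjustment, adjusted p = 0.994) became 0.15 without A549-GFP replicate 2, and -0.72 with A549-GFP replicate 1 left out. NMNAT1 shares 436 exon bases with an overlapping long noncoding RNA that was not analysed here.

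Of the 6 salvage genes tested, 1 mean was higher and 5 were lower in A549-TIPARP cells, with overlapping lines for all 6, beside 59.9% of all genes tested with a lower mean. Without A549-GFP replicate 2, 4 of the 6 were higher and 2 lower, beside 42.6% of all genes tested that were lower. PNP, the nucleoside phosphorylase, was the most abundant, at 87.6, 102 and 85.0 TPM in A549-GFP cells against 78.0, 85.1 and 59.2 TPM in A549-TIPARP cells. NMRK1, the nicotinamide riboside kinase, ranged from 4.85 to 17.4 TPM, and A549-GFP replicate 2 was its highest library.

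Within a library, the level of one gene relative to another does not depend on how libraries are scaled. These ratios were chosen after the values were seen. QPRT was at 0.306, 0.223 and 0.527 of NAMPT in A549-GFP cells and at 1.04, 1.02 and 2.60 of NAMPT in A549-TIPARP cells. QPRT was thus below NAMPT in every A549-GFP library and above it in every A549-TIPARP library. The ratio of NADSYN1 to NAMPT was 0.980, 1.17 and 1.80 in A549-GFP cells against 2.09, 2.12 and 3.14 in A549-TIPARP cells, without overlap. QPRT and NADSYN1 already separated the lines on their own. How often such ratios of tested genes separate the lines was not computed. The ratio of NNMT to NAMPT overlapped between the lines, from 0.978 to 2.71 in A549-GFP cells and from 0.776 to 2.18 in A549-TIPARP cells.

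NADK (Entrez Gene 65220, chr1:1751232-1780457, minus strand, 12 exons) encodes the cytosolic kinase that makes NADP from NAD. Its level was 35.3, 51.6 and 33.2 TPM in A549-GFP cells against 35.8, 35.5 and 36.1 TPM in A549-TIPARP cells. The A549-TIPARP libraries were nearly equal, and A549-GFP replicate 2 stood above all other libraries. The difference was -0.13 (SE 0.21, 95% interval -0.61 to 0.35, limma with Benjamini-Hochberg adjustment, adjusted p = 0.994), and it was 0.06 without A549-GFP replicate 2, -0.21 with A549-GFP replicate 1 left out and -0.25 with A549-GFP replicate 3 left out. NADK2, the mitochondrial kinase, was between 10.3 and 13.9 TPM, and NNT, the transhydrogenase of mitochondria, between 4.88 and 8.71 TPM, both with overlapping lines.

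NNMT (Entrez Gene 4837, chr11:114257787-114313536, plus strand, 3 exons) encodes the methyltransferase that takes nicotinamide out of salvage. Its level was 40.0, 47.8 and 68.4 TPM in A549-GFP cells against 30.8, 22.4 and 46.5 TPM in A549-TIPARP cells. A549-TIPARP replicate 3 lay among the A549-GFP libraries, and the other A549-TIPARP libraries were below all of them. The mean was 1.60-fold lower in A549-TIPARP cells (difference -0.66, SE 0.30, 95% interval -1.34 to 0.03, limma with Benjamini-Hochberg adjustment, adjusted p = 0.994). The difference of NNMT was -0.41 without A549-TIPARP replicate 2 and -0.92 without A549-TIPARP replicate 3. SIRT1 (Entrez Gene 23411, chr10:67884656-67918390, plus strand, 9 exons) encodes a nuclear deacetylase that consumes NAD. It was at 11.6, 16.0 and 6.28 TPM in A549-GFP cells and at 8.62, 9.99 and 7.23 TPM in A549-TIPARP cells, so that the A549-TIPARP range fell inside the A549-GFP range. The difference was -0.28 (SE 0.32, 95% interval -1.01 to 0.45, limma with Benjamini-Hochberg adjustment, adjusted p = 0.994), and it was -0.01 without A549-GFP replicate 2, and -0.62 with A549-GFP replicate 3 left out. All 7 sirtuins were tested, 4 with a higher and 3 with a lower mean and a median log2 difference of 0.01, and none separated the lines. Without A549-GFP replicate 2 the means of 6 sirtuins were higher and 1 was lower (42.6% of all genes tested were lower), whereas with A549-GFP replicate 1 left out 1 was higher and 6 lower (59.0% of all genes tested). With A549-GFP replicate 3 left out, 2 were higher and 5 lower (68.0% of all genes tested). SIRT2 (17.5 to 36.3 TPM) and SIRT7 (27.1 to 36.3 TPM), 2 further deacetylases of the family, overlapped between the lines.

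The NAD glycohydrolases CD38 and BST1, neighbours on chromosome 4 (chr4:15778275-15853232 and chr4:15703065-15738313, both on the plus strand), had mean differences in opposite directions. CD38 was at 12.3, 12.5 and 9.77 TPM in A549-GFP cells and at 6.99, 7.18 and 6.88 TPM in A549-TIPARP cells. All its A549-TIPARP libraries were lower (difference -0.64, 95% interval -1.11 to -0.17, limma with Benjamini-Hochberg adjustment, adjusted p = 0.966). BST1 was at 13.4, 10.2 and 7.85 TPM in A549-GFP cells and at 15.6, 15.6 and 14.4 TPM in A549-TIPARP cells. All its A549-TIPARP libraries were higher (difference 0.52, 95% interval -0.01 to 1.06, limma with Benjamini-Hochberg adjustment, adjusted p = 0.994). The ratio of BST1 to CD38 was 1.09, 0.815 and 0.803 in A549-GFP cells against 2.24, 2.18 and 2.10 in A549-TIPARP cells, which did not overlap. This ratio too was chosen after the values were seen.

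Among the genes that remove ADP-ribose from proteins, PARG and MACROD1 overlapped between the lines. PARG (Entrez Gene 8505, chr10:49818279-49970203, minus strand, 18 exons) encodes the glycohydrolase that cuts poly(ADP-ribose) chains. It was at 17.7, 16.4 and 12.2 TPM in A549-GFP cells and at 13.3, 14.9 and 11.4 TPM in A549-TIPARP cells. A549-GFP replicate 3 was among the A549-TIPARP libraries, and the difference was -0.20 (SE 0.22, 95% interval -0.71 to 0.31, limma with Benjamini-Hochberg adjustment, adjusted p = 0.994). It was -0.35 without A549-GFP replicate 3, -0.10 with A549-GFP replicate 1 left out and -0.11 with A549-TIPARP replicate 3 left out. Its pseudogene copy PARGP1 was listed at 1.44 to 2.36 TPM, and how reads shared by the copies were counted is not given in the sources used here. MACROD1 (Entrez Gene 28992, chr11:63998558-64166113, minus strand, 11 exons) encodes a macrodomain hydrolase of single ADP-ribose units. It was at 19.3, 44.9 and 22.5 TPM in A549-GFP cells and at 30.4, 26.7 and 50.4 TPM in A549-TIPARP cells. A549-GFP replicate 2 and A549-TIPARP replicate 3 stood above the other libraries. The difference was 0.34 (SE 0.35, 95% interval -0.46 to 1.15, limma with Benjamini-Hochberg adjustment, adjusted p = 0.994). Without A549-GFP replicate 2 the mean was 1.66-fold higher in A549-TIPARP cells and the lines did not overlap, while the difference was 0.08 without A549-TIPARP replicate 3 and 0.11 without A549-GFP replicate 1.

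Of the 6 genes tested in the removal group, ADPRHL1 among those with a higher mean, 4 had a higher and 2 a lower mean. These counts were 5 and 1 without A549-GFP replicate 2, and 2 and 4 without A549-GFP replicate 1 or replicate 3. Of all genes tested, 59.9% were lower with all libraries, 42.6% without A549-GFP replicate 2, 59.0% without replicate 1 and 68.0% without replicate 3 of that line. ADPRHL1, a relative of the ADP-ribosylarginine hydrolase for which no such activity is known, was at 11.3, 12.9 and 13.2 TPM in A549-GFP cells and at 16.4, 15.1 and 18.8 TPM in A549-TIPARP cells. Alone among the 6, its lines did not overlap (difference 0.40, 95% interval -0.05 to 0.85, limma with Benjamini-Hochberg adjustment, adjusted p = 0.994). ADPRHL2, the serine ADP-ribose hydrolase also called ADPRS, ranged from 24.0 to 34.0 TPM and OARD1, a macrodomain hydrolase, from 25.6 to 38.5 TPM, with overlapping lines. The summed TPM of these 6 genes, ADPRHL1 included, was 106, 150 and 101 in A549-GFP cells against 124, 121 and 133 in A549-TIPARP cells, which overlapped. TIPARP transcripts amounted to 0.0641, 0.0756 and 0.0366 of that sum in A549-GFP cells and to 1.05, 0.750 and 0.926 of it in A549-TIPARP cells.

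NUDT5 (Entrez Gene 11164, chr10:12165330-12195891, minus strand, 10 exons) encodes a hydrolase that splits free ADP-ribose. Its level was 65.6, 65.2 and 56.2 TPM in A549-GFP cells against 54.8, 56.2 and 50.3 TPM in A549-TIPARP cells. All A549-TIPARP libraries were lower, but A549-GFP replicate 3 and A549-TIPARP replicate 2 were 0.00021 apart on the log2 scale, and the lines overlapped once libraries were rescaled by their median ratio. The difference was -0.21 (SE 0.17, 95% interval -0.59 to 0.17, limma with Benjamini-Hochberg adjustment, adjusted p = 0.994). NUDT5 shares 78 exon bases with SEC61A2 on the opposite strand, which was at 4.05 to 6.95 TPM. Means were lower in A549-TIPARP cells for all 5 genes of free ADP-ribose and dinucleotide hydrolysis, beside 59.9% of all genes tested, and the other 4 overlapped between the lines. Without A549-GFP replicate 2 the means of these 4 were higher in A549-TIPARP cells and that of NUDT5 alone was lower, beside 42.6% of all genes tested that were lower. All 4 were highest in A549-GFP replicate 2, among them NUDT9 (22.8 to 38.3 TPM) and ADPRM (5.09 to 12.4 TPM), both hydrolases of ADP-ribose.

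**Figure D3:**
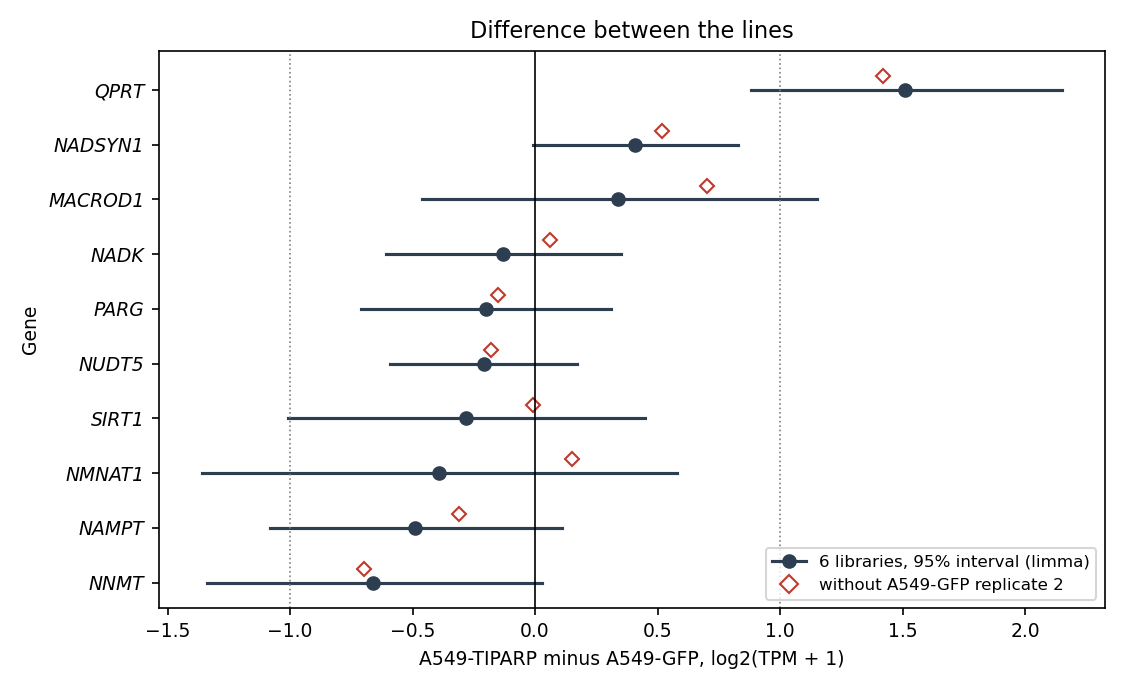
Difference between the lines (A549-TIPARP minus A549-GFP, log2(TPM + 1)) for the 10 genes, as points with 95% intervals from limma over 6 libraries, and as diamonds without A549-GFP replicate 2. The interval of QPRT (0.88 to 2.15) leaves out 0 and those of the other 9 include it, and the diamonds of NMNAT1 and NADK lie on the other side of 0.

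The intervals bound what these libraries could show. For NUDT5, NADK, PARG and NADSYN1 they left out a 2-fold difference in either direction, and for NAMPT, NMNAT1, NNMT, SIRT1 and MACROD1 they reached past 2-fold on 1 side. A549-GFP replicate 2 was farthest from the mean of its line over all genes tested (root mean square log2 deviation 0.621, against 0.185 to 0.400 for the other libraries). It was the highest of the 6 libraries for 4 of the 10 genes (NAMPT, NMNAT1, NADK and SIRT1), beside 52.0% of all genes tested, and the lowest for QPRT. Without it, the median log2 difference was 0.03 for the 10 genes and 0.05 for all genes tested. Of the 10 genes, 5 then separated the lines (NADSYN1, NADK, QPRT, MACROD1 and NUDT5), beside 27.7% of all genes tested. The nearest libraries of the lines were only 0.0046 (log2) apart for NADK and 0.00021 for NUDT5. Without A549-GFP replicate 3, 6 of the 10 genes separated the lines (NAMPT, NADSYN1, QPRT, PARG, SIRT1 and NUDT5), beside 30.7% of all genes tested. With 2 libraries in place of 3 in a line, fewer libraries have to stand apart. With another library left out, though, the share of all genes tested was 11.7% to 16.1%.

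The whole pathway list held 46 genes, of which 38 were tested. Of the 28 tested genes besides the 10, none passed limma with Benjamini-Hochberg adjustment and none passed 2-fold. CD38 and KYNU, 7.14% of the 28, had an unadjusted p under 0.05 (3.85% of all genes tested). The lines did not overlap for 3 higher (NAPRT, BST1 and ADPRHL1, beside 5.36% of all genes tested) and 2 lower (CD38 and KYNU, beside 3.54%), and the median log2 difference was -0.05.

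**Figure D4:**
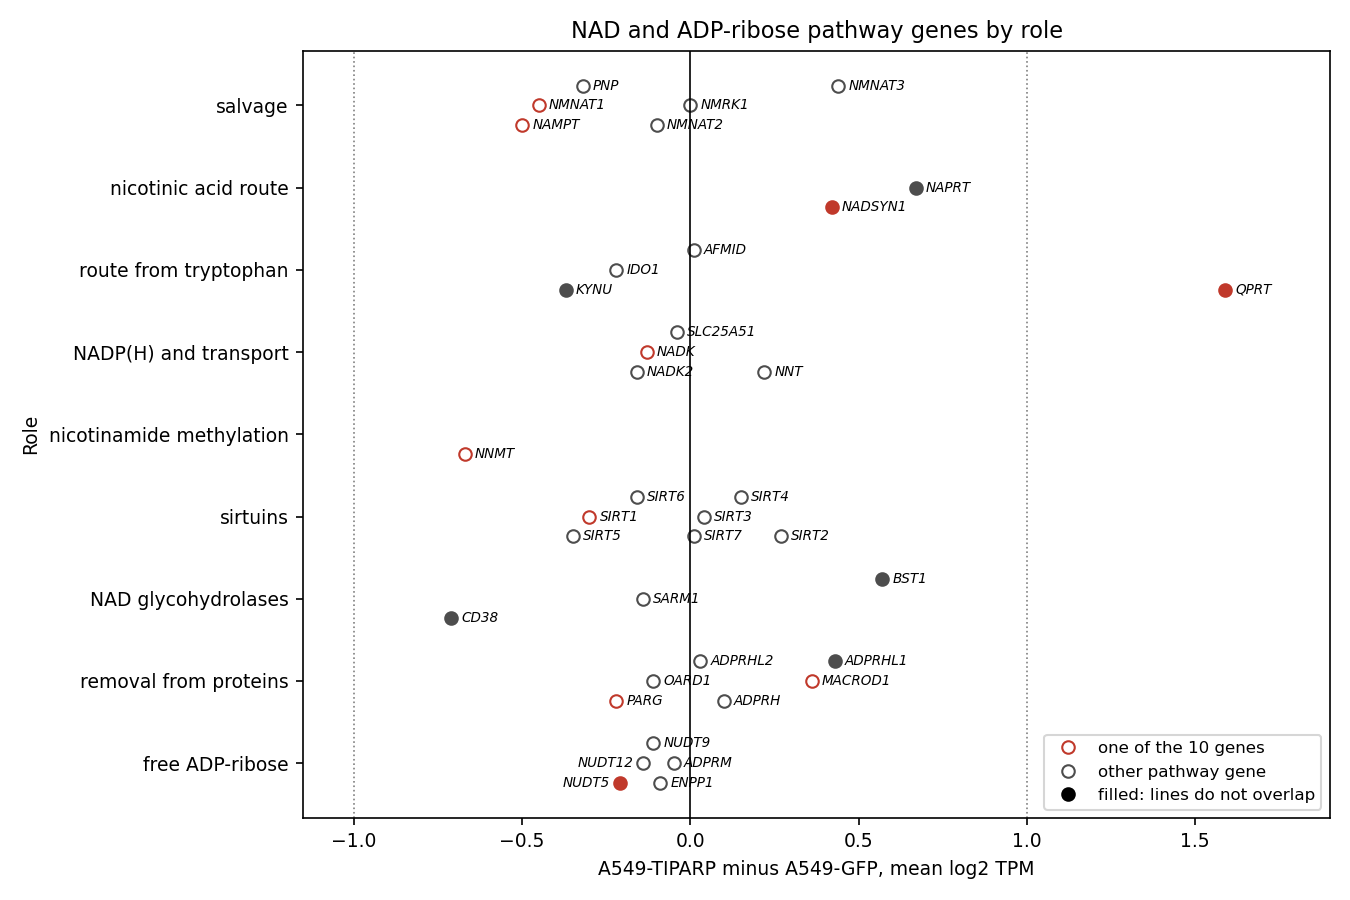
Difference of the mean log2 TPM (A549-TIPARP minus A549-GFP) for the 38 tested genes of the list, one line of points per role, red for the 10 genes and grey for the others, filled where the libraries of the lines do not overlap and with dotted lines at 2-fold. QPRT is the only point past 2-fold, at 1.59, and CD38 and BST1 lie on opposite sides of 0.

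TPM is a level per length, so the 10 genes can be set in order within a library. In A549-GFP cells the order by geometric mean was NUDT5 (62.2 TPM), NNMT (50.7), NADSYN1 (46.3), NADK (39.3), NAMPT (36.4), MACROD1 (26.9), PARG (15.2), QPRT (12.0), SIRT1 (10.5) and NMNAT1 (4.30). The ranges of neighbours overlapped except between MACROD1 and PARG. In A549-TIPARP cells it was NADSYN1 (61.8 TPM), NUDT5 (53.7), QPRT (36.1), NADK (35.8), MACROD1 (34.5), NNMT (31.8), NAMPT (25.7), PARG (13.1), SIRT1 (8.54) and NMNAT1 (3.15). Here NADSYN1 was above NUDT5 in all 3 libraries without overlap, and the ranges also stood apart between NAMPT and PARG, PARG and SIRT1, and SIRT1 and NMNAT1. QPRT at rank 3 was above NADK, the next gene, in 1 of the 3 A549-TIPARP libraries (replicate 3), and NNMT at rank 2 was above NADSYN1 in 1 of the 3 A549-GFP libraries (replicate 3), so neither rank stood apart from the next. Among all genes tested, NUDT5 lay above 82.2% and NMNAT1 above 19.2%. The summed TPM of the 10 genes was 285, 364 and 286 in A549-GFP cells against 291, 289 and 349 in A549-TIPARP cells, which overlapped.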

How the data were processed

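RNA of 3 A549-GFP and 3 A549-TIPARP libraries had been sequenced in pairs on an Illumina instrument after a stranded mRNA preparation. With Strand NGS, the authors mapped the reads to transcripts of hg38, and they deposited the log2 of the TPM of each gene, with TPM below 1 set to a floor of 1. Read counts were not used here, so the depth is unknown and no counting error or limit of detection was computed. The use of strand, the treatment of reads shared by several genes and the annotation release are not given in the sources used here.

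Groups and replicate numbers came from the sample titles, which number experiments, and p-values measure only the spread between these libraries. The deposited log2 values were turned back to TPM. Genes with TPM above 2 in at least 1 library (13181) were tested on log2(TPM + 1) with limma 3.58.1 in R 4.3.3, with a variance trend, all 6 libraries, no block, two-sided, and Benjamini-Hochberg adjustment over all of them, with a threshold of 0.05. A fold is the difference of mean deposited log2 values, and other differences with an SE or interval are on the log2(TPM + 1) scale, where low genes differ less. SDs are between libraries. Tables were read in Python 3.11.15 with pandas 2.3.3. Positions are those of GENCODE 44, and sequences those of RefSeq (GRCh38.p14). The 10 genes, the pathway list and the markers were chosen with earlier results of these data known. Of the other pathway genes, those named separated the lines, passed 2-fold or were the 2 most abundant of a role, and genes at the floor or of low level in the tryptophan route (KMO, HAAO, ACMSD, IDO2, TDO2 and IDO1) were named after their values were seen. Alternatives were other pseudocounts, filters, scaling, no variance trend, the replicate number as a block, and each library left out.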

Additional observations from a re-analysis of the deposited data

How the results depend on the processing

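No gene of the 10 passed the adjusted threshold in limma under any of the 13 alternatives (lowest adjusted p = 0.24, for QPRT without A549-GFP replicate 2), and QPRT alone passed 2-fold in each setting run. Of 130 differences recomputed, 128 kept their direction and the exceptions were NMNAT1 (0.15) and NADK (0.06) without A549-GFP replicate 2. With each library left out, NMNAT1 ranged from -0.72 to 0.15 and NADK from -0.25 to 0.06. The number of genes called over all genes was 2, 1 with no filter, and 1 to 3 with each library left out. The number of the 10 genes whose lines did not overlap was 3 to 6 with each library left out. The share of all genes tested was then 11.7% to 30.7% (8.91% with all 6 libraries). Fewer libraries then have to stand apart, but each setting left out 1 library and the shares still differed. Without A549-GFP replicate 2 the share was 27.7% (21.2% higher and 6.42% lower). Without A549-GFP replicate 3 it was 30.7% (7.21% higher and 23.5% lower). With another library left out it was 11.7% to 16.1%, and the reason was not tested. These shares and the counts by role without a library were added after seeing the data. After median-ratio rescaling NAMPT separated the lines in place of NUDT5, with the nearest libraries only 0.0038 (log2) apart. With A549-GFP replicate 3 left out the median difference of all genes moved from -0.06 to -0.16.

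The deviations of same-numbered libraries from their line means correlated with r = 0.41 for replicate 1, -0.49 for replicate 2 and -0.36 for replicate 3 across genes. Between libraries of different number, r ran from -0.62 (A549-GFP replicate 1 with A549-TIPARP replicate 3) to 0.60 (A549-GFP replicate 2 with A549-TIPARP replicate 3). Since not every same-numbered pair was above 0.1, the libraries were not treated as paired. Whether a number marks a shared day or culture is not given in the sources used here. With the replicate number as a block, limma called 1 gene, and the Benjamini-Hochberg adjusted p of QPRT was 0.999.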

Other observations

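For 4 of the 10 genes (NMNAT1, NADSYN1, NADK and MACROD1), A549-GFP replicate 2 and A549-TIPARP replicate 3 were both the highest library of their line. The same held for 11 of the 28 other pathway genes tested (39.3%) and for 29.2% of all genes tested. Among the pathway genes these included NMRK1, SIRT2, NUDT9 and ADPRM. The ratio of MACROD1 to PARG, chosen after the values were seen, was 1.09, 2.74 and 1.84 in A549-GFP cells against 2.29, 1.79 and 4.43 in A549-TIPARP cells, with the highest value of each line in the same libraries. The cause was not tested.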
